A study of Mus musculus with 8 samples.

Results

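The genes described here encode the subunits of the nuclear RNA polymerases and of the complexes that work directly with polymerase II, namely Integrator, Mediator and the TBP-associated factors (TAFs). They were taken by name: all probes that were not controls and whose gene name in the deposited files starts with Polr1, Polr2, Polr3, Ints, Med or Taf followed, for the last 3, by a digit. This gave 91 genes with 128 probes, out of 36373 genes with 55681 probes on the array. Polymerase I had 5 genes, polymerase II 12, polymerase III 10, Integrator 11, Mediator 30 and the TAFs 23. Among the 128, a probe named Taf9 in the files carries an accession of Ak6 in the gene table, and it was left out of the gene counts (change -0.10, not called).

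Messenger RNA of mouse cells was profiled at day 6 of neural induction, when embryonic stem cells had been taken towards neural progenitors of a radial glia type. On the 4 knockdown arrays the cells expressed a hairpin directed at Zrf1, and on the 4 control arrays a control hairpin. Zrf1, called Dnajc2 in current annotation, is a ribosome-associated J-domain protein that also acts in chromatin. Neither the stem cell line nor the number of hairpins or separate cultures is given in the labels, so the p-values measure the spread between these samples, which may be technical. In the deposited names the knockdown arrays carry 2 numbers, each on 2 arrays, while each control array has its own number. Knockdown arrays 2 and 4 also carry the letters TR, whose meaning is not given. The knockdown arrays may therefore hold repeats of 2 samples. Dnajc2 had log2 signals of -2.17, -2.08, -2.51 and -2.53 on knockdown arrays, against 1.75, 1.87, 1.85 and 2.02 on control arrays.

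Every nucleus has 3 RNA polymerases. Polymerase I makes the large ribosomal RNA, polymerase II makes messenger RNA and most small nuclear RNA, and polymerase III makes transfer RNA and 5S ribosomal RNA. The TAFs build TFIID and SL1, which place polymerases II and I at promoters, Mediator carries signals from transcription factors to polymerase II, and Integrator cleaves small nuclear RNA and paused transcripts.

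A level is given as log2 signal relative to the 75th percentile of its array, so 0 is that percentile, and a change is knockdown minus control. Levels of different probes are not compared, since each probe binds with its own strength. In the whole array, 53.4% to 60.3% of 59305 spots were well above background and none was saturated. A gene stands for its brightest tested probe, and called means a limma adjusted p under 0.05 over all 29091 tested probes. In these bulk samples fewer cells of a type and less RNA per cell cannot be told apart.

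Most of these genes that changed were lower in the knockdown. Of 88 tested genes, 45 fell (51.1%) and 10 rose (11.4%), while 33 were not called. Among all 21750 tested genes the shares were 28.5% lower and 29.1% higher. The median log2 change was -0.33 over the 88 genes and 0.04 over all tested genes. Most of the calls were of modest size. At 2-fold or more, 4 of the 88 genes were called lower and 0 higher, against 1622 and 2260 of all 21750 tested genes. All 4 arrays of the knockdown lay apart from all 4 of the control for 53 of the 88 genes (60.2%), against 55% of all tested genes, so the number of genes with separate groups was near that of the array and the direction of the calls was not. All 55 called genes had the same sign of change on each of the 3 slides. For all of them but Med6 and Taf9b the groups did not overlap, which by itself fixes that sign. When each array was scaled to its median instead, the typical change of all tested genes shifted by -0.17 to -0.12, and 2 of these genes were higher and 47 lower. The share of calls that were higher was then 4.08% in place of 18.2% for these genes, and 37.7% in place of 50.5% for all tested genes. The 8 rises lost were those of Med16, Med20, Med31, Polr3g, Taf10, Taf3, Taf7 and Taf9b. The distance between the median of these genes and that of all tested genes was -0.38. It is the same with both scalings by construction, since each shifts all genes of an array alike. With the authors' values the distance was -0.25.

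**Figure D1:**
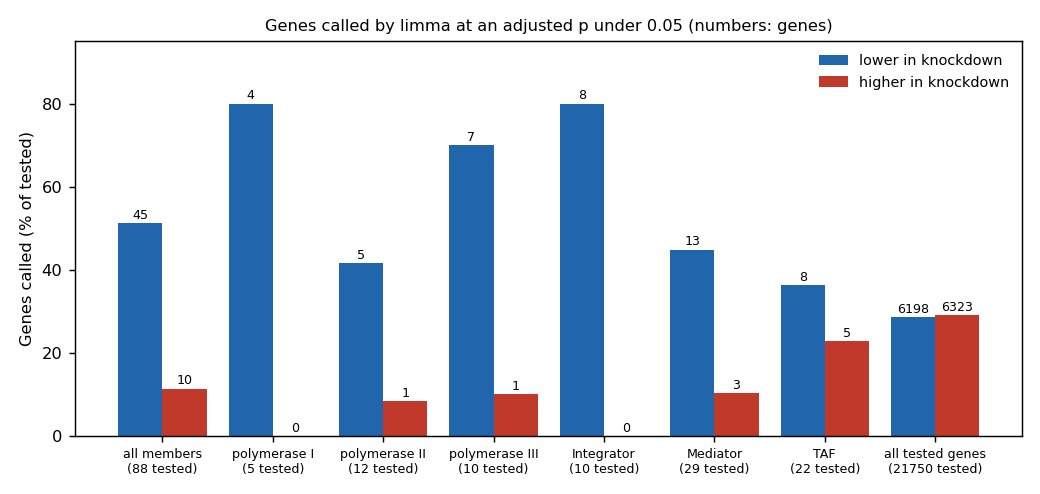
Percentage of tested genes called lower (blue) and higher (red) in the knockdown, for all 88 genes, for each of the 6 groups and for all 21750 tested genes. Numbers above the bars are gene counts. Lower calls exceed higher calls in every one of the 6 groups, whereas over all genes 6198 were lower and 6323 higher.

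The 6 groups differed in how many members were lower. Integrator had 8 of 10 tested genes lower and 0 higher, with a median change of -0.47. Polymerase I had 4 of 5 lower and 0 higher (median -0.61) and polymerase III had 7 of 10 lower and 1 higher (median -0.54). Polymerase II had 5 of 12 lower and 1 higher, with a median change of -0.10. Mediator had 13 of 29 lower and 3 higher (median -0.21), and the TAFs had 8 of 22 lower and 5 higher (median -0.07). At an unadjusted limma p under 0.05 the number higher on the brightest probes was still 0 in Integrator and in polymerase I. The dimmer probe of Polr1d, a polymerase I gene counted as lower, was called higher (change 0.58). Within slides 1, 2 and 3 the median change was -0.70, -0.51 and -0.53 for polymerase I, -0.62, -0.45 and -0.48 for polymerase III, and 0.03, -0.22 and -0.04 for polymerase II. With the groups taken by name, polymerases I and III thus had lower medians than polymerase II on each slide. The difference between the groups was not tested, since the members are not replicates. Its size depends on the grouping by name, which counts the 5 subunits shared by all 3 polymerases (median 0.03) with polymerase II only. Of the other polymerase II genes, the 2 core genes had a median of -0.62 and the remaining 5 a median of -0.01. Ordered by change, these polymerase II genes were Polr2a (-0.71), Polr2j (-0.68), Polr2b (-0.52), Polr2d (-0.40), Polr2i (-0.01), Polr2g (0.11) and Polr2c (0.63). Their middle value was thus that of Polr2d, -0.40.

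**Figure D2:**
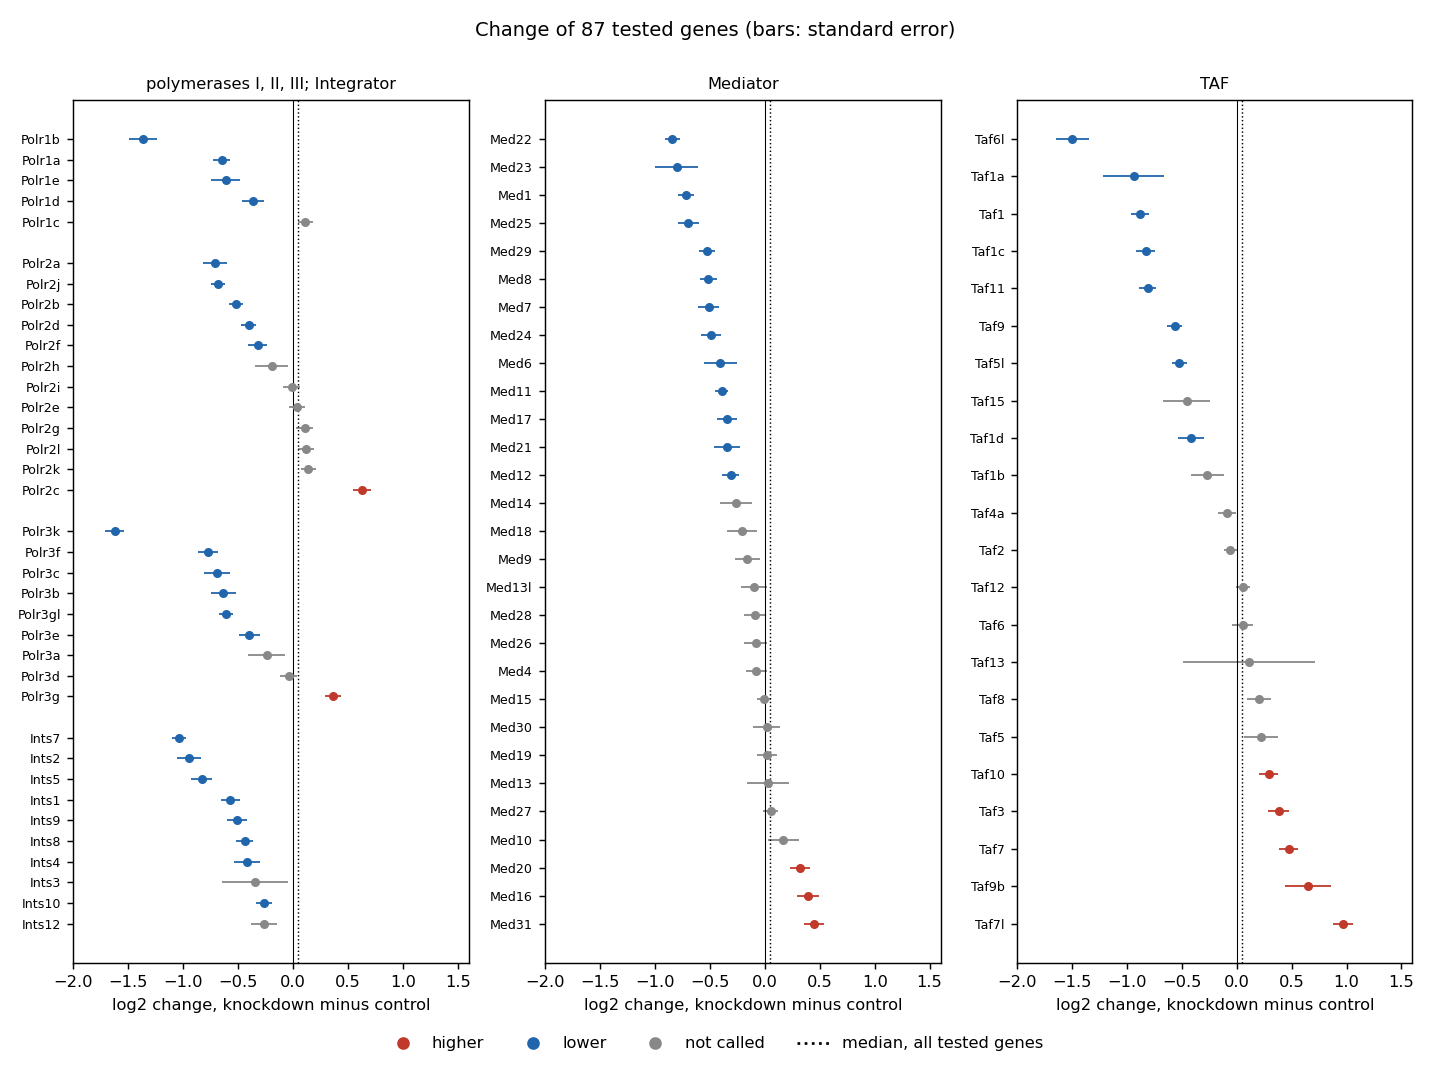
Log2 change (knockdown minus control) of 87 of the 88 tested genes, with the standard error of the limma fit, sorted within each group; blue is called lower, red called higher and grey not called. The dotted line is the median of all tested genes, 0.04. The changes run from -1.63 for Polr3k to 0.97 for Taf7l, and all 10 Integrator genes lie left of 0.

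In polymerase I, signal was lower for both subunits that form its catalytic centre. Polr1b, the second largest subunit, was 2.58-fold lower. It had log2 signals of 0.82, 0.89, 0.97 and 0.98 on knockdown arrays, against 2.38, 2.48, 1.89 and 2.37 on control arrays. The groups did not overlap, although control array 3 lay below the other controls (change -1.37, SE 0.13, limma adjusted p = 3.92e-05). Polr1a, the largest subunit, had 2.76, 2.74, 2.83 and 2.76 on knockdown arrays, against 3.29, 3.46, 3.58 and 3.36 on control arrays. Its knockdown arrays agreed closely and all lay below the controls (change -0.65, SE 0.08, limma adjusted p = 0.000156). Polr1e, which encodes a subunit found in polymerase I only, had 1.51, 1.65, 1.58 and 1.66 on knockdown arrays, against 2.37, 2.41, 1.83 and 2.25 on control arrays, with control array 3 again the lowest control (change -0.61, SE 0.13, limma adjusted p = 0.00364). Its other probe also fell (change -0.69, limma adjusted p = 0.000202).

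Polr1c and Polr1d encode the pair of assembly subunits that polymerases I and III share. Polr1c was not called (change 0.11, limma adjusted p = 0.206). Polr1d was called in opposite directions by its 2 probes, which were designed on different RefSeq transcripts of the gene. Their sequences are shown because the result turns on which probe is read. The first probe is at chr5:147890429-147890488 (mm9, plus strand) and the other at chr5:147922840-147922899 (mm9, plus strand):
Polr1d probe A_51_P260513: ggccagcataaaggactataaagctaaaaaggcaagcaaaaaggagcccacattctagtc
Polr1d probe A_55_P1972923: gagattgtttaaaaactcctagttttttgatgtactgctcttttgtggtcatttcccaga

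Polr1d probe A_51_P260513 had log2 signals of 3.76, 3.85, 3.73 and 3.61 on knockdown arrays, against 3.09, 3.07, 3.24 and 3.22 on control arrays. Every knockdown array was above every control array (change 0.58, SE 0.08, limma adjusted p = 0.000281). Polr1d probe A_55_P1972923 had 4.75, 4.61, 4.61 and 4.57 on knockdown arrays, against 4.86, 4.89, 5.26 and 4.98 on control arrays. Here every knockdown array was below every control array (change -0.36, SE 0.10, limma adjusted p = 0.0136). Polr1d is counted as lower because this second probe is the brighter, so that count rests on 1 of its 2 probes. With knockdown arrays of the same number averaged, the adjusted p of the lower probe was 0.0671.

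**Figure D3:**
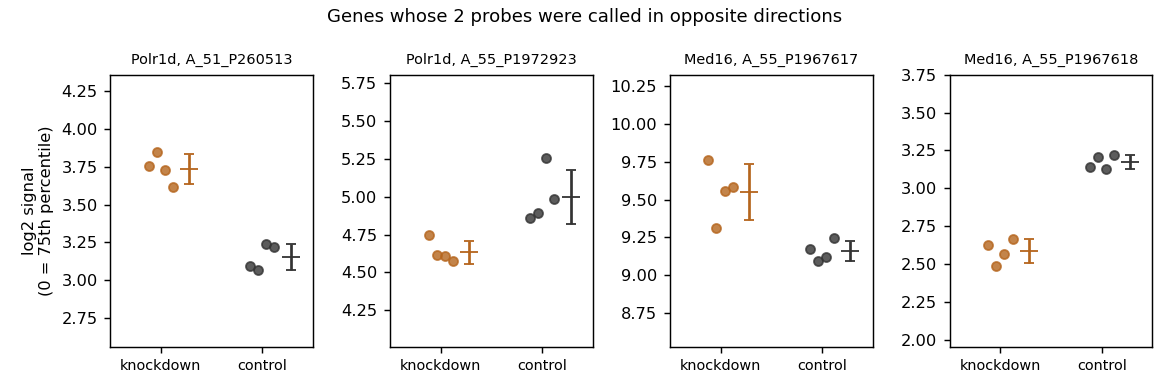
Log2 signal of both probes of Polr1d and of Med16 on each array, knockdown left and control right, with the mean and SD beside the points (n = 4). For each gene 1 probe is higher in all knockdown arrays (Polr1d A_51_P260513, Med16 A_55_P1967617) and the other is lower in all of them.

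Messenger RNA of the 2 largest subunits of polymerase II was also lower, while 6 of its 12 genes were not called and 1 rose. Polr2a, which carries the C-terminal repeat domain, had log2 signals of 0.31, 0.13, -0.09 and 0.15 on knockdown arrays, against 0.98, 0.92, 0.72 and 0.73 on control arrays. All knockdown arrays were lower (change -0.71, SE 0.11, 1.64-fold, limma adjusted p = 0.000549). Polr2b, the other side of the catalytic cleft, had 3.18, 3.25, 3.15 and 3.14 on knockdown arrays, against 3.74, 3.74, 3.60 and 3.72 on control arrays, again with no overlap (change -0.52, SE 0.06, limma adjusted p = 0.000175).

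Polr2c and Polr2j encode partners that pair with each other in the enzyme's assembly platform, and they moved in opposite directions. Polr2c had log2 signals of 6.33, 6.04, 6.07 and 6.22 on knockdown arrays, against 5.58, 5.58, 5.49 and 5.49 on control arrays. All knockdown arrays were higher (change 0.63, SE 0.08, limma adjusted p = 0.000264), and Polr2c kept its call under median scaling, while its other probe was not called (change 0.43, limma adjusted p = 0.24). Polr2j had 4.45, 4.41, 4.39 and 4.45 on knockdown arrays, against 4.98, 5.12, 5.19 and 5.14 on control arrays. All knockdown arrays were lower (change -0.68, SE 0.07, limma adjusted p = 4.56e-05). Polr2d, of the stalk of the enzyme, also fell (change -0.40, limma adjusted p = 0.00106), whereas its stalk partner Polr2g was not called (change 0.11, limma adjusted p = 0.276).

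Of the 5 subunits that all 3 polymerases share, Polr2f fell (change -0.32, SE 0.08, limma adjusted p = 0.0105). Polr2e, Polr2h, Polr2k and Polr2l were not called, with changes of 0.03, -0.20, 0.14 and 0.12, and the median of the 5 was 0.03. Second probes of Polr2i and Polr2l were called (changes -0.36 and 0.28) where the brightest probes were not.

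Polymerase III held the deepest fall among all 88 genes as read on their brightest probes. The dimmer probe of Med24, given below, fell further, by 1.70. Polr3k encodes the small subunit that takes part in RNA cleavage and termination, and it was 3.09-fold lower. It had log2 signals of 1.29, 1.03, 1.10 and 1.07 on knockdown arrays, against 2.66, 2.74, 2.89 and 2.72 on control arrays. The groups lay more than 1 log2 unit apart (change -1.63, SE 0.08, limma adjusted p = 1.66e-06).

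The large subunits of polymerase III changed less evenly. Polr3b, the second largest, had 0.68, 0.84, 0.91 and 0.94 on knockdown arrays, against 1.61, 1.65, 1.23 and 1.43 on control arrays, with no overlap (change -0.63, SE 0.11, limma adjusted p = 0.00136). Polr3a, the largest, had 0.01, 0.34, 0.17 and 0.46 on knockdown arrays, against 0.56, 0.75, 0.03 and 0.60 on control arrays. Its groups overlapped, with control array 3 among the knockdown arrays, and it was not called (change -0.24, SE 0.17, limma adjusted p = 0.266). Without control array 3 it passed, at a change of -0.39 and an adjusted p of 0.027.

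**Figure D4:**
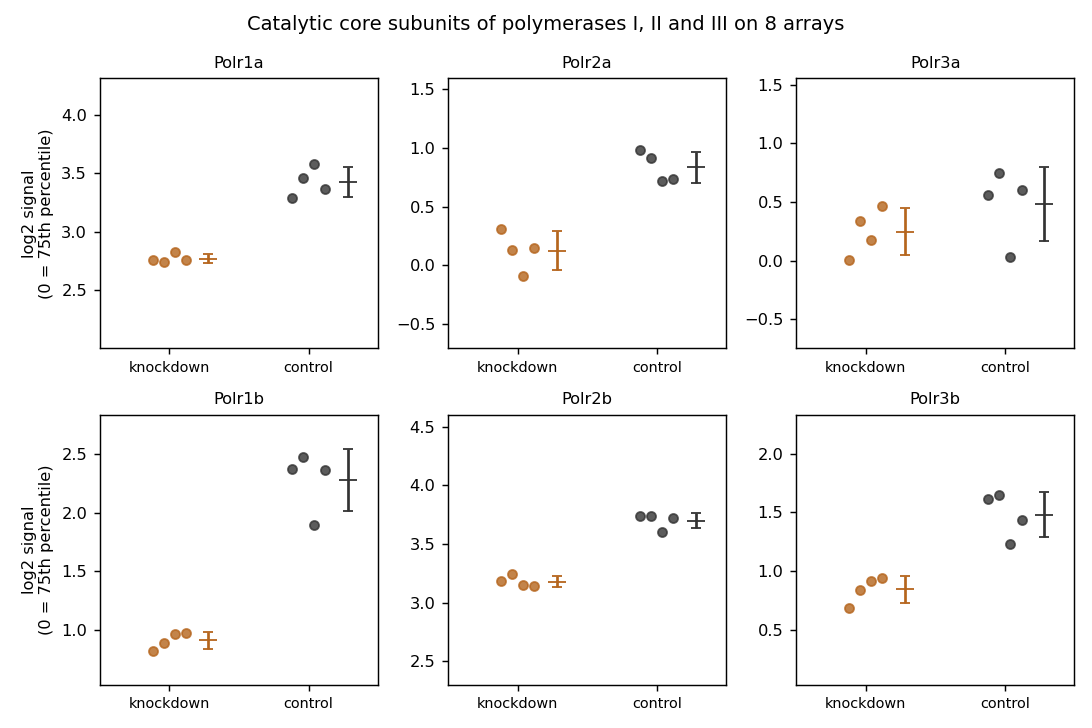
Log2 signal of the 2 largest subunits of polymerases I, II and III on each array, knockdown left and control right, with the mean and SD beside the points (n = 4). The groups are separate for Polr1a, Polr1b, Polr2a, Polr2b and Polr3b and overlap for Polr3a.

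Polr3c, Polr3f and either Polr3g or Polr3gl form the subcomplex that polymerase III needs to start transcription. Polr3f had log2 signals of -0.79, -1.01, -0.85 and -0.96 on knockdown arrays, against -0.25, -0.23, -0.02 and -0.01 on control arrays. It was 1.71-fold lower with no overlap (change -0.77, SE 0.09, limma adjusted p = 0.000128), and its other probe agreed in sign and call (change -0.89). Polr3c had 1.52, 1.53, 1.45 and 1.62 on knockdown arrays, against 2.34, 2.39, 1.89 and 2.25 on control arrays (change -0.69, SE 0.12, limma adjusted p = 0.00107), with control array 3 the lowest control. Polr3e fell by 0.40 on the log2 scale, and Polr3d was not called (change -0.04, limma adjusted p = 0.693).

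The paralogues Polr3g and Polr3gl moved apart. Polr3g, the form linked to pluripotent and proliferating cells, had log2 signals of 2.31, 2.40, 2.22 and 2.21 on knockdown arrays, against 1.92, 1.94, 1.82 and 2.00 on control arrays. All knockdown arrays were higher (change 0.36, SE 0.07, limma adjusted p = 0.00285). Polr3gl, the form of most adult tissues, had 1.04, 0.92, 1.05 and 1.02 on knockdown arrays, against 1.55, 1.62, 1.71 and 1.61 on control arrays. All knockdown arrays were lower (change -0.61, SE 0.07, limma adjusted p = 7.89e-05), and its other probe fell as well (change -0.66, limma adjusted p = 0.00587). The rise of Polr3g was not called under median scaling (change 0.20, limma adjusted p = 0.178). The difference between the 2 changes does not depend on scaling and was 0.98, with the knockdown arrays above all control arrays (exact permutation test, two-sided, p = 0.0286, the smallest that 70 arrangements of 4 against 4 arrays allow). The probes that read the pair are printed to show that they do not resemble each other, at chr13:81813003-81813062 (Polr3g) and chr3:96381798-96381857 (Polr3gl), both mm9, minus strand. Without gaps, at most 20 of 60 bases match:
Polr3g probe: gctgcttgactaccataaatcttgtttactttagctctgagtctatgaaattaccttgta
Polr3gl probe: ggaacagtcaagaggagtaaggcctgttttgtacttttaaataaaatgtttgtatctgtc

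Their promoters, with that of Polr3k, are shown because these genes give the largest fall and the opposed pair of polymerase III. The windows run from 250 bases before to 50 bases after the start of the gene in RefSeq (GRCm38.p6) and were searched on both strands for TATAAA of the TATA box, for CCAAT, for the GC box written GGGCGG and for the core bound by ETS factors, written CCGGAAG. None of these contains another, and capitals mark matches. The Polr3g window is at chr13:81710964-81711263 (minus strand), that of Polr3gl at chr3:96594132-96594431 (minus strand) and that of Polr3k at chr2:181864110-181864409 (plus strand):
Polr3g promoter: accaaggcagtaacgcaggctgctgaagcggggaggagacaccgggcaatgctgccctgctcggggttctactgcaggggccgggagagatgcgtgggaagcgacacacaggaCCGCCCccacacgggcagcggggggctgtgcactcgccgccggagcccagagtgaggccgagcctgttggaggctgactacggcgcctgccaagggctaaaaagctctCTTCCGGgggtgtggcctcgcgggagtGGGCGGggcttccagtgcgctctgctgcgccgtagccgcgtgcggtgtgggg
Polr3gl promoter: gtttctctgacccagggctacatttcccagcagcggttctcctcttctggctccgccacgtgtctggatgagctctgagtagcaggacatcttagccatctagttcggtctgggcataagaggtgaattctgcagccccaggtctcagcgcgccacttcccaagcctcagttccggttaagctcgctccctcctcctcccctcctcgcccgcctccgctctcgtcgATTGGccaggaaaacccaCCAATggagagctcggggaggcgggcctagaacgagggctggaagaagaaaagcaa
Polr3k promoter: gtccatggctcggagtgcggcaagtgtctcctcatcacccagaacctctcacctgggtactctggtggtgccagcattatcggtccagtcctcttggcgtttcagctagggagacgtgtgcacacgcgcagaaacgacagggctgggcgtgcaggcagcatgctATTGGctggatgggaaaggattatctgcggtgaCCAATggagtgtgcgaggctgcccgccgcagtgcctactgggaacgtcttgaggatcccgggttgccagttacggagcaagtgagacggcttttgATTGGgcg

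The windows of Polr3gl and Polr3k, both lower, hold CCAAT on both strands, whereas those of Polr3b, Polr3c, Polr3e and Polr3f, also lower, hold none. The window of Polr3g holds the GC box and the ETS core but no CCAAT. By call, CCAAT was in 50% of 42 windows of lower genes, 28.1% of 32 of genes not called and 10% of 10 (1 window) of higher genes. In the same order, TATAAA ran the other way, in 7.14%, 12.5% and 30%. The GC box was in 64.3%, 65.6% and 50%, and the ETS core in 31.0%, 37.5% and 30%. The differences between these shares were not tested. Over the 86 windows of the 74 genes with an entry, CCAAT was present in 37.2%, against 37.4% of all 32851 windows of the table. The GC box was in 64.0% of the 86 windows, against 35.7% of all, the ETS core in 32.6% against 8.86%, and TATAAA in 11.6% against 13.6%. These shares are descriptions of letters, and the windows of all genes include non-coding genes. Genes with no entry included Ints5, Ints8, Ints9, Ints10, Med8, Med23, Med24, Med30, Polr2d, Polr2g, Polr2k, Polr3a, Polr3d, Taf2, Taf4b and Taf7.

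Integrator genes were lower as a group. All 10 tested genes had a change below 0, from -1.04 to -0.26, and 8 fell. Ints7, a subunit of the Integrator backbone, had log2 signals of -0.04, -0.09, -0.07 and -0.06 on knockdown arrays, against 0.89, 0.95, 1.01 and 1.05 on control arrays. The knockdown arrays lay close together and far below the controls (change -1.04, SE 0.06, limma adjusted p = 2.97e-06). Ints2 had -3.25, -3.17, -2.92 and -2.96 on knockdown arrays, against -2.04, -2.21, -2.30 and -1.97 on control arrays, and was 1.93-fold lower (SE 0.11 on the log2 scale, limma adjusted p = 0.000125). Ints5 had -0.53, -0.59, -0.51 and -0.51 on knockdown arrays, against 0.23, 0.40, 0.48 and 0.08 on control arrays, and was 1.78-fold lower (SE 0.09 on the log2 scale, limma adjusted p = 0.000114). Neither of these 2 genes had overlapping groups.

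In the cleavage module of Integrator, Ints9, the partner of the endonuclease Ints11, and the scaffold Ints4 fell (changes -0.51 and -0.42). Ints11 itself, which has another name on the array, was not called (change 0.07, limma adjusted p = 0.543). Ints1, Ints8 and Ints10 fell by 0.57, 0.44 and 0.27 on the log2 scale. Ints3, which also serves in a DNA damage complex, had widely spread arrays, with the high values of both groups on slide 2. It was not called (change -0.35, SE 0.30), with changes of -0.10, -0.43 and -0.43 within slides 1, 2 and 3. Ints12 was not called either (change -0.26, limma adjusted p = 0.0918). With slide as a block, 9 of the 10 tested Integrator genes were called lower. Ints6 was not well above background and was not tested. Of 6 tested Integrator subunits and partners under other array names, 4 fell and 1 rose, where 28.5% of all tested genes fell and 29.1% rose. Ints14 fell by 1.26 on the log2 scale, and Nabp1, a single-stranded DNA binding partner of Ints3, rose by 1.09.

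Within Mediator, 13 of 29 tested genes (44.8%) were called lower, against 28.5% of all tested genes, and the counts are given here by module. The head, which contacts polymerase II, had 5 of 7 genes lower and 1 higher (median -0.39), and the tail, which meets transcription factors, had 3 of 5 lower and 1 higher (median -0.49). The middle had 3 of 7 lower and 1 higher (median -0.16). The kinase module had 1 of 3 tested genes lower and 0 higher (median -0.10), and the remaining subunits had 1 of 7 lower and 0 higher (median -0.08). The difference between modules was not tested.

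Med22, of the head, had log2 signals of 1.66, 1.53, 1.44 and 1.51 on knockdown arrays, against 2.36, 2.35, 2.48 and 2.32 on control arrays. It was 1.79-fold lower with no overlap (change -0.84, SE 0.07, limma adjusted p = 2.28e-05). Med23, of the tail, had -1.57, -1.17, -1.30 and -1.75 on knockdown arrays, against -1.06, -0.79, -0.34 and -0.39 on control arrays. Both groups spread widely, yet they did not overlap (change -0.80, SE 0.19, limma adjusted p = 0.00754). Med1, the subunit that binds nuclear receptors, had 2.54, 2.39, 2.32 and 2.36 on knockdown arrays, against 3.13, 3.15, 3.14 and 3.08 on control arrays (change -0.72, SE 0.07, limma adjusted p = 4.29e-05). Another 2 of its 4 probes fell as well (changes -0.90 and -0.65), and the last was not called (change 0.13, limma adjusted p = 0.0955).

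The head subunits Med8, Med11 and Med17 fell by 0.52, 0.39 and 0.35 on the log2 scale. Med6, also of the head, only just passed, with overlapping groups (change -0.41, SE 0.15, limma adjusted p = 0.0484). Its call was lost in 14 of 20 alternative settings, with adjusted p of 0.0674 to 0.117 on leaving out any 1 array other than control array 3. Med25 and Med24 of the tail fell by 0.70 and 0.49, Med7 of the middle by 0.51, and Med29 by 0.53. Med21, of the middle, was called lower (change -0.35, SE 0.12, limma adjusted p = 0.0363), with changes of -0.02, -0.54 and -0.29 within slides 1, 2 and 3. Its call was lost in 11 of 20 settings, with adjusted p of 0.0606 to 0.0937 without control array 3 or 4 or knockdown array 2, 3 or 4. For Med24 the other probe fell further, by 1.70, so the size of its fall depended on the probe. Med12, the activator of the kinase, fell by 0.31 on its brightest probe and by 1.51 on its dimmer one, while Med13 and Med13l were not called (changes 0.03 and -0.10). Of the partners of Med12 in that module, Cdk8 and cyclin C (Ccnc) fell by 0.26 and 0.51 and Cdk19 rose by 0.72. The scaffold Med14 was not called on any of its 3 probes.

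Med31 and Med20 were the Mediator genes that rose on their brightest probes without a conflicting probe. Med31, of the middle, had log2 signals of 4.12, 3.95, 3.96 and 4.00 on knockdown arrays, against 3.40, 3.54, 3.77 and 3.53 on control arrays (change 0.45, SE 0.09, limma adjusted p = 0.0033). Med20, of the head, had 1.37, 1.28, 1.41 and 1.53 on knockdown arrays, against 1.13, 1.22, 0.94 and 1.02 on control arrays (change 0.32, SE 0.09, limma adjusted p = 0.0137). Neither had overlapping groups, and neither was called under median scaling, where the changes were 0.28 and 0.15.

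Med16, of the tail, was called higher by its brightest probe and lower by the other. The probe that rose is shown beside the higher probe of Taf7l, because both hold the run of 10 letters in capitals, which occurs in the B1 repeat found in many mouse transcripts. This was seen after the values were known. The Med16 probes are at chr10:79357669-79357728 and chr10:79357455-79357514 and the Taf7l probe at chrX:130994658-130994717, all mm9, minus strand:
Med16 probe A_55_P1967617: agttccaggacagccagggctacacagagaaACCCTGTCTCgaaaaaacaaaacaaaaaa
Med16 probe A_55_P1967618: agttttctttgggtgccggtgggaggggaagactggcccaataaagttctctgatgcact
Taf7l probe A_55_P2070661: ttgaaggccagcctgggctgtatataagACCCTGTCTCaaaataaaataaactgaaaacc

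Med16 probe A_55_P1967617 had log2 signals of 9.76, 9.31, 9.56 and 9.58 on knockdown arrays, against 9.17, 9.10, 9.12 and 9.24 on control arrays (change 0.39, SE 0.10, limma adjusted p = 0.00933). Med16 probe A_55_P1967618 had 2.63, 2.49, 2.57 and 2.67 on knockdown arrays, against 3.14, 3.20, 3.13 and 3.22 on control arrays. All its knockdown arrays were lower (change -0.58, SE 0.07, limma adjusted p = 0.000109). Across the array, 17 tested probes held the 10 letters, these 2 included, and 11 of the 17 were higher and 0 lower in the limma fit, with a median change of 0.54. Over all tested probes 29.0% were higher and 28.1% lower, with a median of 0.05. The part of the repeat in the signals of Med16 and Taf7l was not tested. Without these probes, 8 of 87 genes were higher and 46 lower, with Med16 among the lower and Taf7l not measured.

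Among the TAFs, 3 of the 4 of SL1 fell, as did the SAGA forms Taf5l and Taf6l, and TFIID had calls in both directions. The difference between these groups was not tested. SL1, the polymerase I promoter factor, had 3 of its 4 TAFs lower and 0 higher (median -0.62). Taf1c and Taf1d fell by 0.83 and 0.42 on the log2 scale, and Taf1b was not called (change -0.27, limma adjusted p = 0.165). Taf1a, whose probe is mapped to an unplaced part of chromosome 1, had log2 signals of -4.24, -3.40, -2.81 and -3.16 on knockdown arrays, against -2.72, -2.41, -2.45 and -2.28 on control arrays. On 3 of the 4 knockdown arrays it was well above background, and all lay below the controls (change -0.94, SE 0.28, limma adjusted p = 0.0196). Without control array 4 its adjusted p was 0.051.

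Taf6l, the SAGA counterpart of Taf6, had the deepest fall of the TAFs. It had log2 signals of -0.49, -0.91, -0.41 and -0.33 on knockdown arrays, against 0.94, 1.08, 1.13 and 0.70 on control arrays. It was 2.83-fold lower with no overlap (change -1.50, SE 0.15, limma adjusted p = 5.43e-05). Taf5l, the SAGA counterpart of Taf5, fell by 0.52 (SE 0.07, limma adjusted p = 0.000289). SAGA also holds Taf9 or Taf9b, Taf10 and Taf12, which it shares with TFIID and which are described with TFIID and the paralogues. Of the 13 tested SAGA subunits that are not TAFs, 9 fell and 1 rose (median -0.55), and the adaptor Tada1 fell by 1.61. Of all tested genes 28.5% fell and 29.1% rose.

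TFIID had 3 of 13 tested TAFs lower and 3 higher, with a median change of 0.06. Taf1, its largest subunit and the scaffold of the complex, had log2 signals of 0.47, 0.37, 0.38 and 0.32 on knockdown arrays, against 1.42, 1.32, 1.11 and 1.24 on control arrays. It was 1.85-fold lower with no overlap (change -0.88, SE 0.08, limma adjusted p = 3.49e-05), and a second probe gave a change of -0.92. The histone-fold subunits Taf11 and Taf9 fell by 0.81 and 0.56 on the log2 scale.

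The rises within TFIID were smaller. Taf7, which binds Taf1, had 2.52, 2.61, 2.52 and 2.50 on knockdown arrays, against 2.09, 1.89, 2.04 and 2.24 on control arrays (change 0.47, SE 0.08, limma adjusted p = 0.00154), while its dim other probe was not called (change -0.14). Taf3, a reader of trimethylated H3, had 1.24, 1.08, 0.91 and 0.91 on knockdown arrays, against 0.66, 0.61, 0.80 and 0.55 on control arrays (change 0.38, SE 0.10, limma adjusted p = 0.00955), and its other probe was not called (change 0.09). Taf10 was called higher on both of its probes (changes 0.29 and 0.23), but the call of its brightest probe was lost in 7 of 20 settings, among them without control array 4 (adjusted p = 0.0548) and without knockdown array 2 (0.053). The groups of Taf7 and Taf3 did not overlap on the brightest probe, and none of these 3 genes was called under median scaling. Taf2, Taf4a, Taf5, Taf6, Taf8, Taf12 and Taf13 were not called. Taf13 had the widest spread of the 88 genes, with -1.44, 0.05, 0.09 and -1.58 on knockdown arrays, against -1.79, -1.67, 0.20 and -0.06 on control arrays. Its high values, in knockdown arrays 2 and 3 and control arrays 3 and 4, were on slide 2 and its low values on the other slides.

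Taf7l and Taf9b, paralogues of Taf7 and Taf9, were both called higher, Taf9b less firmly. Taf7l, a form known from germ cells, had log2 signals of 1.89, 2.00, 1.96 and 1.99 on knockdown arrays, against 0.94, 0.78, 1.14 and 1.10 on control arrays. All knockdown arrays were higher (change 0.97, SE 0.09, limma adjusted p = 3.84e-05) on the probe with the repeat letters given above, its only probe. Taf9b had log2 signals of -1.51, -2.19, -2.08 and -2.18 on knockdown arrays, against -2.62, -2.98, -2.18 and -2.76 on control arrays. Its groups overlapped at control array 3 (change 0.65, SE 0.21, limma adjusted p = 0.0276). The call of Taf9b was lost in 10 of 20 alternative settings, with adjusted p of 0.0536, 0.0691 and 0.0671 without control arrays 1, 2 and 4, 0.0556 without knockdown array 1 and 0.107 under median scaling.

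For 6 pairs of paralogues the difference of the 2 changes was tested, a comparison that scaling does not touch. Beside Polr3g and Polr3gl, it was 1.21 for Taf9b minus Taf9, 0.50 for Taf7l minus Taf7, -0.74 for Taf5l minus Taf5 and -1.55 for Taf6l minus Taf6. In each of these 5 pairs the knockdown arrays lay apart from all control arrays (exact permutation test, two-sided, p = 0.0286, Benjamini-Hochberg adjusted over the 6 pairs 0.0343). The knockdown arrays may hold repeats of 2 samples. With arrays of the same number averaged, the 2 knockdown values still lay apart from the 4 control values in these 5 pairs, and the exact permutation p was 0.133, the smallest that 2 against 4 values allow, so that comparison cannot pass 0.05. For Med13l minus Med13 it was -0.13, with overlapping arrays (exact permutation p = 0.571, adjusted 0.571). Taf9b minus Taf9 was 1.97 within slide 1, against 0.93 and 1.01 within slides 2 and 3. For Taf7l minus Taf7, the only Taf7l probe holds the repeat letters given above, whose 17 tested probes had a median change of 0.54. The part of the repeat in this difference was not tested. Taf7 was read on its brightest probe, and its other probe was not called (change -0.14).

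**Figure D5:**
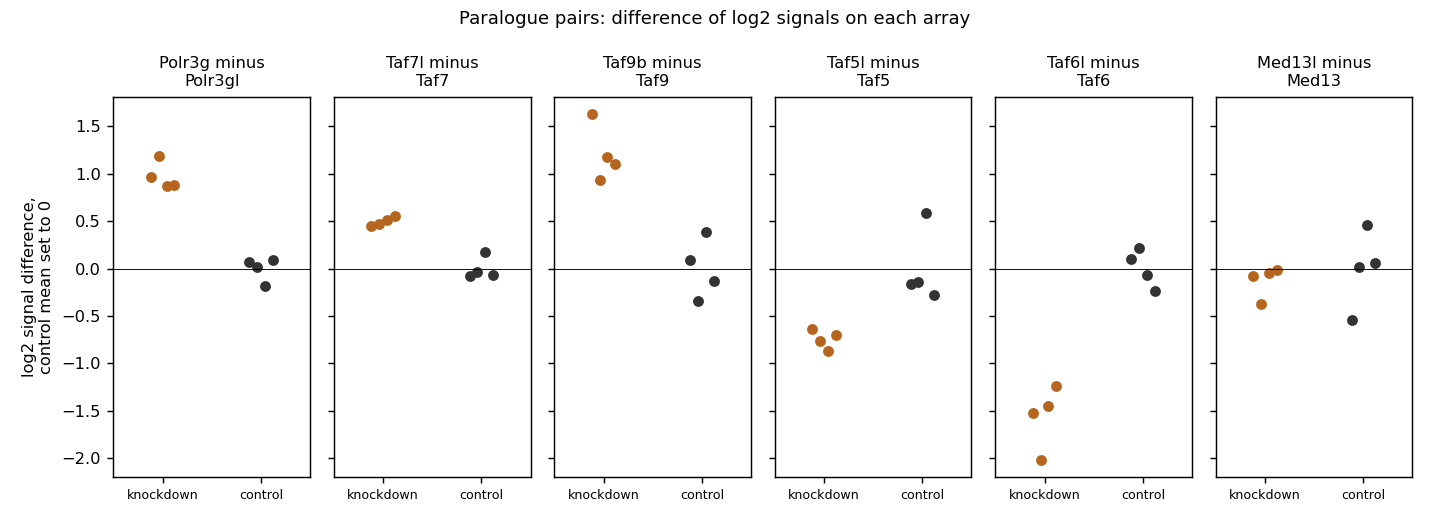
Difference of the log2 signals of 2 paralogues on each array, knockdown left and control right, with the control mean of each pair set to 0. The 4 knockdown arrays lie above all controls for Polr3g, Taf7l and Taf9b, below them for Taf5l and Taf6l, and among them for Med13l. The only Taf7l probe holds the repeat letters.

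Genes with several tested probes numbered 27. All probes had the same call for 18 of them, opposite calls for 2 (Polr1d and Med16) and a mixture of called and not called for 7. Over the 119 tested probes, 13 were higher and 59 lower. Ints6, Med12l and Taf4b had no tested probe. Taf15, an RNA-binding protein named as a TAF, was not called (change -0.46, SE 0.21).

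Other genes of these pathways, grouped in lists by role, also gave more lower than higher calls. Among all tested genes 28.5% were lower and 29.1% higher. Tbp, called lower, is counted both with the polymerase I initiation factors and with the general factors of polymerase II. The polymerase I subunits under other array names (Polr1f, Polr1g and Polr1h) fell in 3 of 3 cases, and Polr1g fell by 0.92 on the log2 scale. The polymerase I initiation factors fell in 3 of 3 tested cases, among them Rrn3 and the rDNA activator Ubtf (changes -0.34 and -0.41). Of 16 polymerase III initiation genes 9 fell and 1 rose. The TFIIIC subunit Gtf3c6 fell by 1.29, the TFIIIB subunit Brf1 by 0.86 and the repressor Maf1 by 0.62, while Snapc1 rose by 1.14. Of 19 general factors of polymerase II 11 fell and 3 rose, with Tbpl1 at -0.71 and Mnat1 at 0.50. Of 23 tested pausing and elongation genes 13 fell and 5 rose, with Cdc73 at -0.85 and Ell3 at 1.26. Of 7 polymerase assembly factors 4 fell and 1 rose, and Gpn1, which takes polymerase II into the nucleus, fell by 0.66.

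Markers of cell types also differed between the 2 groups. The summed linear signal of 9 neural progenitor markers was 32.3 to 34.1 on knockdown arrays, against 119 to 130 on control arrays, in units of the 75th percentile. Of these markers 8 fell, and Fabp7 was at background on all knockdown arrays. For 7 pluripotency markers the sum was 24.1 to 25.7 in the knockdown, against 59.4 to 66.8 in the control (5 fell and Klf4 rose). For 8 endoderm markers it was 9.94 to 10.8, against 2.20 to 2.64, and all 8 rose, with Afp and Sox7 not well above background on any control array. For 6 proliferation markers it was 172 to 179, against 251 to 265, and 5 fell. The sums of 6 neuron markers, 10.3 to 11.3 against 8.16 to 9.83, and of 4 measured fibroblast markers, 6.64 to 7.44 against 3.55 to 3.68, were also higher in the knockdown. Of the neuron markers 4 fell and Stmn2 rose, and of the fibroblast markers Col1a1 and Thy1 rose. The part of the cell makeup and of proliferation in the changes of the subunit genes was not tested.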

How the data were processed

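Total RNA of 8 samples (4 knockdown and 4 control, day 6) was hybridised to single-colour Agilent mouse arrays. The deposited scanner files give the intensity of each spot, which per the file headers was background-subtracted and corrected for spatial trends within each array but not scaled between arrays, together with the authors' scanner flags. The authors' deposited value table gives log2 values of the same arrays. How it was made is not stated in the labels or headers, so it served as an alternative.

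From the intensities, outlier and control spots were left out, spots of a probe were averaged, and signals were put on the log2 scale relative to the array's 75th percentile. Testing required that all arrays of a group read the probe well above background, which left 29091 of 55681 probes. Knockdown and control were compared with limma 3.58.1 in R 4.3.3 (two-sided, through lmFit and then eBayes), adjusting p-values by Benjamini-Hochberg across the tested probes, at a threshold of 0.05. The fit was tested on simulated data. The brightest tested probe stood for a gene, which gave 21750 genes. Named genes were updated through the RefSeq accession, symbol or synonym. Positions of probes are those of the files (mm9), and their exon or UTR annotation was not analysed here.

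Values on every array are given for the 2 largest subunits of each polymerase, for up to 3 rises and 3 falls per group by size of change among called genes with separate groups, and for genes with opposite probes. Taf9b, Taf13 and Polr3gl were given in the same way, and genes of the other lists were named, after their values were seen. The members, the lists of genes and these rules were chosen with earlier results of these data known. For pairs of paralogues, chosen likewise, an exact permutation test over the 8 arrays was used. Promoter windows and their symbols come from RefSeq (GRCm38.p6), and 74 of 91 genes matched. The values of 1 polymerase III gene are counted in the groups but not reported here.

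Each slide held both groups, and slides were treated as an alternative. The scan times coincided with the slides. The number of arrays, 8, limits the precision. Alternatives covered scaling, background correction, the authors' values, the filter, slide, replicate block, repeat arrays and leaving out each array.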

Additional observations from a re-analysis of the deposited data

Results flagged for a closer look

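Polr2b on control array 3 lay apart from the other controls, at a log2 signal of 3.60 against 3.72 to 3.74, still above all knockdown arrays. Taf9b on knockdown array 1 lay above the other knockdown arrays, at -1.51 against -2.19 to -2.08, and above all controls. These were the 2 groups of 4 arrays with such a gap among 64 checked over 32 genes, where chance gives about 1 in 20. The log2 differences of control array 3 from control arrays 1 and 2 had SDs of 0.52 and 0.52, the widest among the pairs of arrays within a group.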

How the results depend on the processing

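Of the 55 calls, 46 to 55 were kept under each alternative fit, except with slide 2 alone (2 against 2 arrays, added after seeing the data), which kept 33. With a replicate block 40 members were lower and 9 higher, and 49 calls were kept. With knockdown arrays of the same number averaged 39 members were lower and 7 higher, and 46 calls were kept. The numbers did not pair the arrays, since same-numbered arrays had correlations of their deviations of 0.11, -0.12, 0.11 and -0.19 and 0 of 4 correlated best with their own number. Under median scaling 4131 of all tested genes were higher, and medians were -0.12 for all tested genes (sign turned), -0.50 for the members, -0.78 for polymerase I, -0.27 for II, -0.70 for III, -0.64 for Integrator, -0.38 for Mediator and -0.24 for TAFs. Higher calls numbered 2 in all, with 0 in polymerase III, 0 in Mediator and 1 in TAFs. A shift common to all genes is the construction of that scaling.

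With the authors' values the medians were 0.0075 (all tested genes), -0.24 (members), -0.51, -0.0283 and -0.42 (polymerases I, II and III), -0.38 (Integrator) and 0.0274 (TAFs, sign turned), and 3 polymerase II genes were higher. TAFs had 3 higher calls with knockdown arrays of 1 number averaged and without the filter, where the median of all genes was 0.11. Normexp gave -0.17 for polymerase II. Slide 2 alone gave higher calls of 2 (members), 0 (polymerase III), 0 (Mediator) and 1 (TAFs), and lower calls of 4 (polymerase III), 5 (Integrator) and 8 (Mediator). Its medians for polymerases I, II and III were -0.51, -0.22 and -0.45. Within slide 1 medians were 0.10 (all tested genes), -0.24 (members), -0.70, 0.0312 (sign turned) and -0.62 (polymerases I, II and III) and -0.55 (Integrator). Within slide 3 they were -0.0168 (all tested genes, sign turned), -0.53 and -0.0395 (polymerases I and II) and -0.55 (Integrator).

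Leaving out 1 array gave medians of -0.37 to -0.30 (members), -0.64 to -0.55 (polymerase I), -0.16 to -0.0430 (polymerase II) and -0.14 to -0.0365 (TAFs), and 3 to 6 higher TAFs, with 3 reached without control array 4. The cause of these moves was not tested. Over all settings of the 32 genes given by array, a call was lost 30 times and gained 1 time, and no called change turned sign. Over these settings and within each slide, the difference of changes ranged from 0.81 to 1.07 for Polr3g and Polr3gl, 0.44 to 0.63 for Taf7l and Taf7, 0.83 to 1.97 for Taf9b and Taf9, -0.97 to -0.49 for Taf5l and Taf5, and -1.73 to -1.33 for Taf6l and Taf6. Dim probes such as Taf1a limit the depth of what can be called.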
